A study of Mus musculus with 8 samples.

Results

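Gene expression was compared between cortices labelled Mboat7-/- (knockout, KO) and cortices labelled Mboat7+/- (heterozygous) on embryonic day E11.5, with 2 embryos per genotype. The members are all genes with at least 10 counts in 2 or more of these 4 cortices, which took in 15025 of the 23420 genes listed and 99.9% of the counts. The series holds 8 cortices in all, the other 4 of them from E12.5. The KO is global rather than restricted to neural cells, the mice were kept on C57BL/6N, and the heterozygous cortices also carry 1 mutant Mboat7 allele, so the comparison contains no wild-type tissue. Each genotype has 1 cortex in each of 2 labelled batches, and the replicate number is the batch number.

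Mboat7 encodes lysophospholipid acyltransferase 11 (LPLAT11), the enzyme that places arachidonic acid on lysophosphatidylinositol and so sets the fatty acid makeup of phosphatidylinositol, the parent lipid of the phosphoinositides. At this age the cortical wall consists mainly of radial glial cells (RGCs), the neural stem cells that line the ventricle. They give rise to the first neurons directly and to intermediate progenitor cells (IPCs), which divide again before making neurons. Meninges, skin and the mesenchyme of the head lie just outside this wall. The comparison asks whether transcription differed before the abnormal tissue structure appears in the KO.

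Reads counted on genes came to 21843330 and 26600310 for Mboat7+/- replicates 1 and 2, and to 28189771 and 24490973 for the replicates labelled Mboat7-/-. Mboat7 itself had 700 and 876 counts in heterozygous tissue, against 1103 and 860 under the Mboat7-/- label. As CPM (counts scaled to the normalized library size) this was 32.6 ± 0.605 (SD, n = 2) against 37 ± 2.82 (SD, n = 2), a fitted log2 difference of 0.18 (SE 0.11, edgeR adjusted p = 0.514). Mboat7 counts were thus not reduced in the libraries labelled Mboat7-/-, and every direction given here rests on the labels. Xist, transcribed from the inactive X chromosome of female cells, was at 17875 counts in Mboat7+/- replicate 1 and at 2, 0 and 0 in the others. The Y-linked genes Kdm5d, Ddx3y, Uty and Eif2s3y had 0 counts in that cortex and between 414 and 1412 in each of the others. Female sex was thus found in 1 of the 4 embryos, a heterozygous one. Over 532 X-linked genes the median log2 fold change was 0.04. Mboat7-/- replicate 1 stood apart as the highest library for 4362 genes and the lowest for 4381, and the libraries also differed in transcripts of eye and head tissue, whose values are given below.

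No gene passed an FDR under 0.05 between the genotypes (0.0% of 15025, edgeR, quasi-likelihood, with p adjusted by Benjamini-Hochberg). At an unadjusted p under 0.05 there were 2059 genes, with 1242 of them (8.27% of those tested) above and 817 (5.44%) below the heterozygous level. The other tools called between 169 genes (DESeq2) and 191 (edgeR's exact test) at an FDR under 0.05. With the batch as a replicate block the quasi-likelihood test called 367 genes, 259 higher (1.72%) and 108 lower (0.719%), of which 34 differed by 1 or more on the log2 scale. The call for single genes thus depended on the tool and on whether the 2 batches were modelled, and without the block the smallest adjusted p of any gene was 0.0528 (edgeR). The median absolute log2 fold change between genotypes was 0.148. The same measure between the 2 heterozygous cortices was 0.129, and between the 2 cortices labelled Mboat7-/- it was 0.154. The first value contrasts groups of 2 cortices, while the others compare single cortices, which vary more than group means. Their closeness thus cannot be read as a lack of difference between genotypes. For 3594 genes (23.9%) both cortices labelled Mboat7-/- lay above both heterozygous ones, and for 3364 (22.4%) both lay below. The fold change also exceeded both within-genotype differences for 2704 of the higher genes (18.0% of all tested) and 2374 of the lower ones (15.8%).

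The differences ran with transcript length. Genes were placed in 10 classes of equal size by the length of their longest protein-coding transcript. For genes without one the longest transcript was taken, and a length was found for 14908 genes. In the class of shortest transcripts (median 949 nucleotides) the median log2 fold change was -0.15, and in the class of longest (median 8251 nucleotides) it was 0.18, with each class in between higher than the one before. The trend was also laid out by library, as the deviation from the mean of the 4. These deviations depend on each other, so a trend in 1 genotype alone would appear as a mirror image in the other. Relative to the mean of the 4 libraries, the shortest class lay at 0.06 and 0.10 on the log2 scale in the heterozygous cortices and at -0.06 and -0.07 in those labelled Mboat7-/-. For the longest class the corresponding values were -0.08 and -0.09 against 0.10 and 0.10. Replicates of 1 genotype were alike in this respect: the median difference between them stayed within 0.04 in every class. Of the shortest class 44.5% of genes were lower without overlap and 6.31% higher, while of the longest class 4.16% were lower and 56.5% higher.

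**Figure D1:**
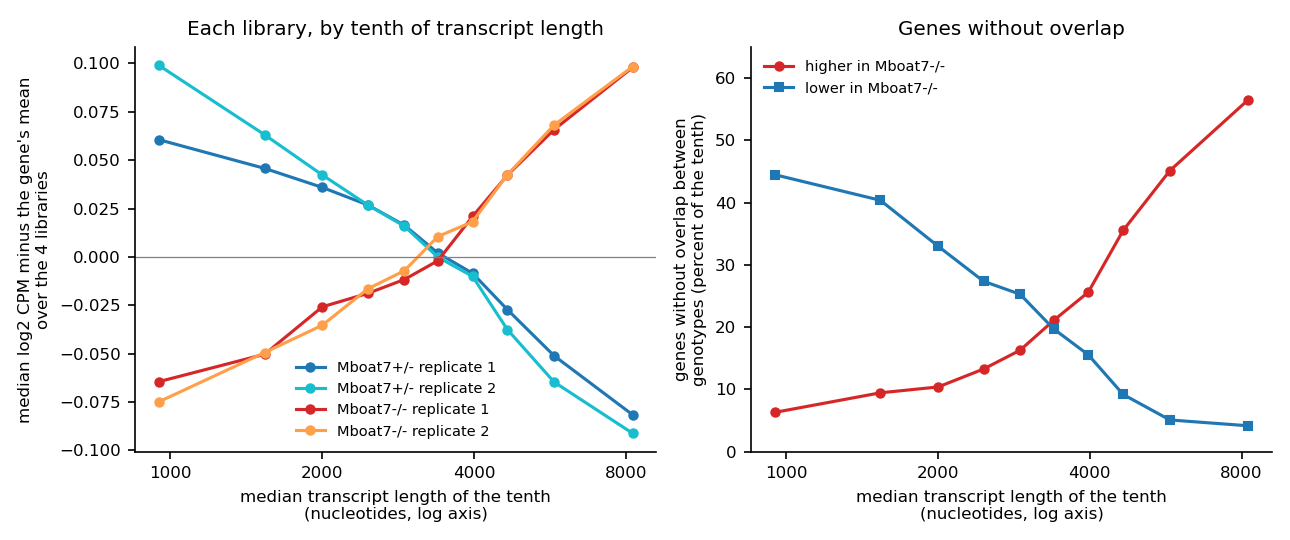
Left, median log2 CPM of each library relative to the gene's mean over the 4 libraries (y axis) for 10 classes of genes by transcript length (x axis, nucleotides, log axis). Right, percent of genes in each class whose genotypes did not overlap, higher (red) or lower (blue) in the cortices labelled Mboat7-/-. The 2 libraries of each genotype run together, from 0.06 and 0.10 down to -0.08 and -0.09 in the heterozygous cortices and from -0.06 and -0.07 up to 0.10 and 0.10 in the others.

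Across genes, the Spearman correlation of the fold change with transcript length was 0.391 (14908 genes, which share their libraries and are not independent), against -0.041 for the difference between the heterozygous cortices and 0.009 for that between the cortices labelled Mboat7-/-. Within batch 1 it was 0.276 and within batch 2 0.378. Among genes in the highest of 3 abundance classes it reached 0.653, in the middle class 0.50 and in the lowest 0.196. GC content of the transcript ran the other way, with a correlation of -0.223. At E12.5, where the libraries came from another provider, the correlation with length was 0.243 and the class medians ran from -0.07 to 0.08. When a smooth trend with length and GC content was removed from each library, 637 genes (4.24%) were higher and 492 (3.27%) lower at an unadjusted p under 0.05, and again none passed an FDR under 0.05 (smallest 0.215, edgeR). Together with the replicate block the removal left 1 call, Erdr1, in place of 367. Of those 367 genes, 142 of the 259 higher ones came from the longest class, and 316 still had an unadjusted p under 0.05 after the removal. The cause of the trend was not tested.

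Gene groups of general cell function lay along this trend. Counts of list members are to be read beside the shares over all genes tested. At an unadjusted p under 0.05 these were 8.27% higher and 5.44% lower, and without overlap 23.9% and 22.4%. Cytosolic ribosomal protein genes, which build both subunits of the ribosome and have short transcripts (median 914 nucleotides), were lower for 78 of 79 members, 40 of them at an unadjusted p under 0.05. Their median log2 fold change was -0.14, against 0.00 over all genes tested, and became -0.01 once the trend with length and GC content was taken out. The nuclear-encoded subunits of the respiratory chain (median 913 nucleotides) were lower for 72 of 74 members, and their median moved from -0.15 to -0.03 when the trend was removed. Cox6a1, a subunit of cytochrome c oxidase, was lower by 0.29 on the log2 scale before the removal and by 0.09 after it.

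Groups of long transcripts lay on the other side. Of 48 genes of chromatin remodelling and histone modification (median 8187 nucleotides), 43 were higher and 29 of these had an unadjusted p under 0.05. Their median log2 fold change was 0.17, and 0.04 with the trend removed. Bptf, the largest subunit of the NURF remodelling complex, had 3871 and 4707 counts in the heterozygous cortices and 6646 and 5718 in those labelled Mboat7-/-. These counts equal 178 ± 0.319 CPM (SD, n = 2) against 234 ± 1.58, a fitted log2 difference of 0.39 (SE 0.06, edgeR adjusted p = 0.161, 0.0113 with the replicate block). The replicates of each genotype were almost equal and the genotypes lay far apart, yet the value went down to 0.21 with the trend removed. Chd7, another remodelling enzyme, went from 0.37 to 0.20 in the same way. Receptors and ligands of axon guidance (median 6690 nucleotides) were higher for 37 of 49 members, with a median of 0.16 before and 0.02 after removal of the trend. Without Mboat7-/- replicate 2 the median was also 0.02, and without Mboat7-/- replicate 1 it was 0.21. Tenm4, a teneurin that joins cells across contacts, had 1281 and 1481 counts against 2356 and 2146, a fitted log2 difference of 0.57 (SE 0.08, edgeR adjusted p = 0.154, 0.0066 with the replicate block). Flrt2, a receptor for guidance of migrating cells, was higher by 0.72, and both genes stayed higher with the trend removed, at 0.40 and 0.53.

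**Figure D2:**
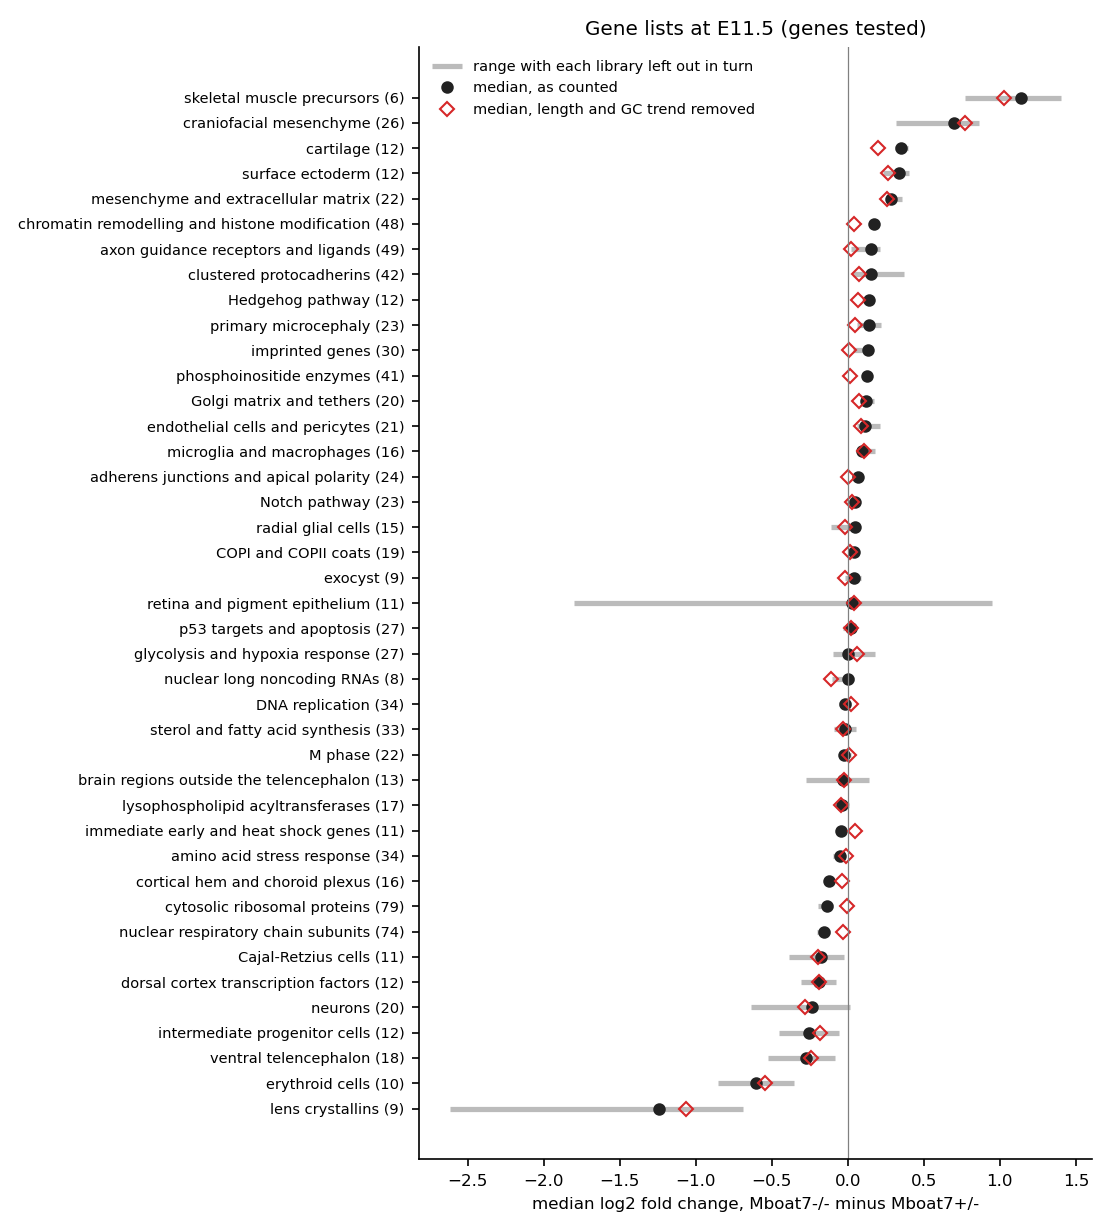
Median log2 fold change (x axis, Mboat7-/- minus Mboat7+/-) of each gene list with at least 6 genes tested (y axis, number tested in parentheses). Black points are medians from the counts, open red diamonds are medians with the length and GC trend removed, and grey bars span the medians with each library left out in turn. The ribosomal, respiratory chain and chromatin lists move close to 0 when the trend is removed, while the mesenchymal, craniofacial and erythroid lists stay away from it.

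The groups closest to the function of Mboat7 had small medians. Of 41 enzymes that make, phosphorylate, dephosphorylate or cleave phosphoinositides, 31 were higher and 3 had an unadjusted p under 0.05. Those 3 are a share close to the 8.27% of all genes tested that were higher at this p. The list median was 0.12, and 0.02 with the trend removed. Plcg1, a phospholipase that cleaves phosphatidylinositol 4,5-bisphosphate, had the lowest p among them, with 149 ± 5.07 CPM (SD, n = 2) against 179 ± 0.136 and a fitted log2 difference of 0.26 (SE 0.06, edgeR adjusted p = 0.186). Of 17 lysophospholipid acyltransferases and related enzymes, Mboat7 included, 8 were higher and 9 lower, and none had an unadjusted p under 0.05. Sterol and fatty acid synthesis genes had a median of -0.02 over 33 members, and genes of the amino acid stress response one of -0.05 over 34.

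Among the genes of secretion and cell contact, the Golgi matrix and tether list held the gene with 1 of the 2 smallest p-values, Glg1. Glg1, an integral glycoprotein of the Golgi, had 1519 and 1869 counts in the heterozygous cortices and 3440 and 2750 in those labelled Mboat7-/-. The log2 fold change was 0.73 (standard error 0.08), from 70.2 ± 0.461 CPM (SD, n = 2) to 117 ± 6.85, and the adjusted p of 0.0528, shared with Erdr1, was the smallest reached at E11.5 (edgeR, 0.0011 with the replicate block). Removing the length and GC trend left 0.60. Within the batches the difference was 0.80 and 0.66, against 0.01 between the heterozygous cortices and -0.12 between the others. Of the 20 Golgi genes 15 were higher and 8 of these had an unadjusted p under 0.05, against 8.27% of all genes tested. These transcripts are long (median 6091 nucleotides), and with the trend removed 1 was higher at this p, against 4.24% of all genes tested. The list median was 0.12 before and 0.07 after the removal. Adherens junction and polarity genes had 17 higher and 7 lower members and a median of 0.07, which went to 0.00. Tjp1, the scaffold of tight and adherens junctions also known as ZO-1, was higher by 0.37 (adjusted p = 0.186 from edgeR, 0.0192 with the replicate block). COPI and COPII coat genes (19 tested) and exocyst genes (9 tested) each had a median of 0.04, and among them only Exoc4 had an unadjusted p under 0.05.

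Some of the lists concern tissue that surrounds the cortical wall. Genes of mesenchyme and extracellular matrix, made by the meninges and the connective tissue of the head, were higher in the cortices labelled Mboat7-/- for 20 of 22 members. At an unadjusted p under 0.05 there were 14 higher, against 8.27% of all genes tested, and none in the other direction. The list median was 0.29, and 0.26 with the length and GC trend removed. It was 0.33 within batch 1 and 0.29 within batch 2. The median signed difference between replicates was 0.04 in the heterozygous pair and 0.06 in the other pair, but opposite differences cancel in it. Mboat7-/- replicate 1 was the highest library for 10 members and replicate 2 for 11. Relative to the gene's mean, Col1a1 lay at -0.29 and 0.30 in these 2 cortices and Foxc2 at 0.89 and 0.04. The fold change exceeded both within-genotype differences for 11 higher members, against 18.0% of all genes tested. With each library left out in turn the list median ran from 0.27 to 0.36. In a bulk sample fewer cells of a type and less RNA per cell cannot be told apart, so these values describe the RNA of the dissected tissue and not a state of a given cell.

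Col3a1, a fibrillar collagen and the member with the most counts, had 13445 and 15075 counts in the heterozygous cortices and 21544 and 18881 in those labelled Mboat7-/-. The fitted log2 difference was 0.36 (SE 0.06, edgeR adjusted p = 0.161, 0.0113 with the replicate block). Postn, a matrix protein of connective tissue, had 161 and 272 against 519 and 510 counts, a fitted log2 difference of 1.14 (SE 0.19, edgeR adjusted p = 0.161, 0.0072 with the replicate block). Both genes were higher in each cortex labelled Mboat7-/- than in either heterozygous one. Pdgfra, a growth factor receptor of mesenchyme, had 1598 and 1697 against 3366 and 2253 counts. Fbn2, a microfibril protein, had 3754 and 4543 against 8424 and 5636, and Tgfbi, a matrix protein induced by TGF-beta, had 1134 and 1170 against 2211 and 1721. The log2 fold changes of Pdgfra, Fbn2 and Tgfbi were 0.62, 0.61 and 0.62, and 0.48, 0.45 and 0.67 with the trend removed. Their adjusted p (edgeR) were 0.175, 0.161 and 0.161, and 0.0042, 0.0055 and 0.0055 with the replicate block. Cxcl12, the chemokine that meninges release towards migrating cortical cells, had 2303 and 2482 against 4998 and 3635 counts and a fitted log2 difference of 0.70 (SE 0.10, edgeR adjusted p = 0.155, 0.00105 with the replicate block). Col1a1, another fibrillar collagen, had 7871 and 9572 against 8394 and 11003 counts, a log2 fold change of 0.04 with overlapping genotypes.

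Genes of the face and skull, listed after the values had been seen, were also higher in the cortices labelled Mboat7-/-. Of 29 such genes 26 were tested, 24 were higher and 15 of these had an unadjusted p under 0.05 (8.27% of all genes). The list median was 0.70 (0.77 with the trend removed), and the summed level was 373 and 350.0 CPM of all counts in the heterozygous cortices against 600 and 446. Pax9, a transcription factor of the pharyngeal arches and palate, had 0 and 0 counts in the heterozygous cortices and 34 and 31 in those labelled Mboat7-/-, at least 9.88-fold higher against a floor of 3 counts per library. Pitx1, a jaw and limb regulator, had 0 and 4 against 262 and 36 counts, and Barx1, a regulator of tooth and jaw mesenchyme, had 4 and 14 against 118 and 56. Genes this low entered the test only through the cortices in which they were high. Six2, a regulator of head mesenchyme, had 2235 and 2468 against 4458 and 3024 counts. Alx4, which patterns the face, had a log2 fold change of 0.43. Mboat7-/- replicate 1 was the highest of the 4 libraries for 20 of the 26 genes, and without it the list median was 0.32.

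Cartilage, muscle and skin genes were examined in the same way. Of 12 cartilage genes tested, 11 were higher, with a median of 0.35, or 0.20 with the length and GC trend removed. Col2a1, the main cartilage collagen, had 8462 and 10750 counts against 18151 and 12151. Its log2 difference was 0.72 within batch 1 and 0.28 within batch 2. Of 14 genes of skeletal muscle precursors only 6 were tested. Myf5 and Myod1, which define that lineage, were not among them, since only Mboat7-/- replicate 1 reached 10 counts. They had 26 and 4 and 46 and 6 counts in the cortices labelled Mboat7-/- against at most 2 in either heterozygous one. Surface ectoderm genes were higher for 10 of 12 members (median 0.34, and 0.27 with the trend removed). At an unadjusted p under 0.05 there were 2 higher, against 8.27% of all genes tested. Mboat7-/- replicate 1 was the lowest library for 3 members and replicate 2 for 1. Relative to the gene's mean, the keratin gene Krt5 lay at -0.53 and 0.57 in these 2 cortices and Krt18 at 0.69 and -0.47. Tfap2b, also a regulator of neural crest, had 942 and 814 against 1510 and 1477 counts, and Krt8, a keratin of simple epithelia, 208 and 244 against 502 and 325. Ptch1, the Hedgehog receptor and itself a target of the pathway, had 1273 and 1217 against 2635 and 1760 counts, a fitted log2 difference of 0.66 (SE 0.15, edgeR adjusted p = 0.176, 0.0026 with the replicate block).

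Eye tissue separated the 2 cortices labelled Mboat7-/- from each other. Rax, a regulator of the early eye, had 216 and 278 counts in the heterozygous cortices and 663 and 20 in those labelled Mboat7-/-. Pmel, a pigment cell protein, had 337 and 642 against 1092 and 34, and Cryaa, a lens crystallin, 331 and 494 against 251 and 0. Of 11 tested genes of retina and pigment epithelium, Mboat7-/- replicate 1 was the highest library for 10 and Mboat7-/- replicate 2 the lowest for 11. Their summed level was 136 and 145 CPM of all counts in the heterozygous cortices, 221 in Mboat7-/- replicate 1 and 67.4 in replicate 2. The median of replicate 2 minus replicate 1 of the cortices labelled Mboat7-/- was -3.24 on the log2 scale. Both lists were drawn up after the values had been seen. The crystallins Cryba1 and Crybb1 had 56 and 88 against 22 and 4 counts and 49 and 81 against 26 and 12. Of 9 crystallin genes tested, 7 were lower and Mboat7-/- replicate 2 was the lowest library for 7. The part of these tissues in the other differences was not tested.

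**Figure D3:**
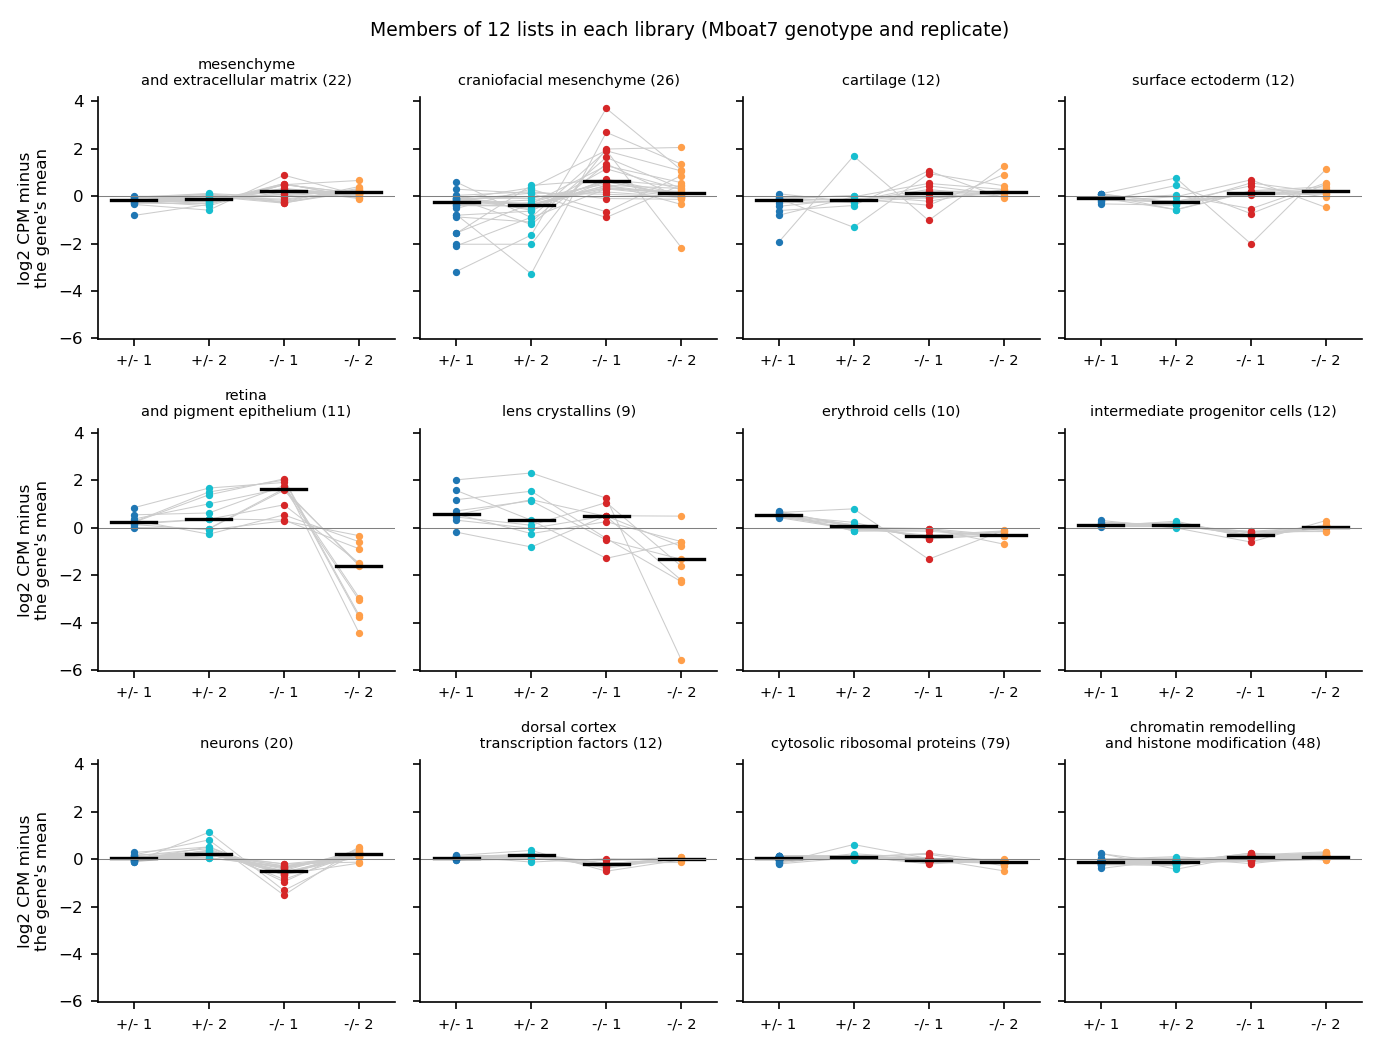
Log2 CPM of each member of 12 gene lists relative to its mean over the 4 libraries (y axis), for Mboat7+/- replicates 1 and 2 and Mboat7-/- replicates 1 and 2 (x axis). Points are genes, grey lines join a gene, black bars are medians, and the number of genes tested is in parentheses. Retina and pigment genes are lowest in Mboat7-/- replicate 2 for 11 of 11 genes, and neuron genes lowest in Mboat7-/- replicate 1 for 20 of 20.

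Genes of cortical neurons and their progenitors were lower, but unevenly so between the embryos. Of 12 IPC genes 12 were lower in the cortices labelled Mboat7-/-, with a list median of -0.25 (-0.18 with the trend removed). There were 8 without overlap and 5 at an unadjusted p under 0.05, against 22.4% and 5.44% of all genes tested. Only 3 also exceeded both within-genotype differences, against 15.8% of all genes tested. Eomes, which encodes the IPC regulator Tbr2, had 2232 and 3150 counts against 2112 and 2508, without overlap in CPM. The gap was small. Relative to the gene's mean log2 CPM, Mboat7+/- replicate 1 lay at 0.065 and Mboat7-/- replicate 2 at 0.055. The fitted log2 difference was -0.33 (SE 0.14, edgeR adjusted p = 0.345, 0.0421 with the replicate block). Neurog2, the proneural factor with the most counts on the list, was lower by 0.26 with overlapping genotypes. The cell cycle inhibitor Gadd45g and the Notch ligand Dll3 were lower by 0.35 and 0.35 without overlap. Mboat7-/- replicate 1 was the lowest library for 12 of the 12 genes. The median was -0.44 within batch 1 and -0.09 within batch 2, and -0.06 without that library. Without Mboat7-/- replicate 2 it was -0.45.

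For neuron genes too a single library lay lowest. All 20 were lower on average, with a median of -0.23 and of -0.28 with the trend removed. At an unadjusted p under 0.05 there were 3, against 5.44% of all genes tested. Mboat7-/- replicate 1 was the lowest library for 20 of 20, and without it the median was 0.02, against -0.64 without Mboat7-/- replicate 2 and -0.11 without Mboat7+/- replicate 2. Tubb3, the neuronal tubulin, had 20119 and 27060 counts in the heterozygous cortices and 15697 and 21409 in those labelled Mboat7-/-. The fitted log2 difference was -0.45 (SE 0.17, edgeR adjusted p = 0.299, 0.0197 with the replicate block), and the difference between the 2 cortices labelled Mboat7-/- was larger, at 0.65. Snap25, a protein of synaptic vesicle fusion, had 362 and 519 against 247 and 299 counts, a fitted log2 difference of -0.80 (SE 0.20, edgeR adjusted p = 0.186, 0.0312 with the replicate block). Fezf2, which specifies deep layer neurons, was lower by 0.32, with replicates of each genotype within 0.09 of each other. Cajal-Retzius cell genes had a median of -0.18 over 11 members, with 4 higher and 7 lower. Mboat7-/- replicate 1 was the lowest library for 7 of them, and the median was -0.02 without it, -0.08 without Mboat7+/- replicate 2 and -0.39 without Mboat7-/- replicate 2.

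Transcription factors that give the dorsal cortex its identity were lower for 11 of 12 members (median -0.19, also with the trend removed). Of these 3 had an unadjusted p under 0.05, against 5.44% of all genes tested. Emx1 had 1233 and 1740 against 1012 and 1225 counts, a fitted log2 difference of -0.52 (SE 0.15, edgeR adjusted p = 0.22, 0.0192 with the replicate block). Lhx2 and Dmrta2 were lower by 0.28 and 0.30, with adjusted p of 0.0420 and 0.0400 with the block (edgeR). Neither passed an FDR under 0.05 without it. Genes of the ventral telencephalon, which lies next to the cortex, were lower for 16 of 18 members (median -0.28). Dlx2, a regulator of interneurons, had 2849 and 3357 against 2357 and 2681 counts. The medians of both lists were closer to 0 without Mboat7-/- replicate 1, at -0.08 and -0.08, and further from it without Mboat7-/- replicate 2, at -0.31 and -0.53.

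RGC genes did not move in 1 direction. Of 15 members 8 were higher and 7 lower, and the median was 0.04, or -0.02 with the trend removed and -0.11 without Mboat7-/- replicate 2. Pax6, the RGC transcription factor, was lower by 0.25 without overlap (154 ± 3.18 against 129 ± 13.1 CPM, SD, n = 2, adjusted p = 0.246 from edgeR). Vim, an intermediate filament of RGCs and the member with the most counts, was lower by 0.11. Genes of M phase (22 tested) and of DNA replication (34 tested) had medians of -0.02 and -0.02, and 27 genes of the p53 response and apoptosis one of 0.02. Primary microcephaly genes, mostly of centrosomes and spindles and with long transcripts (median 5215 nucleotides), were higher for 18 of 23 members, and their median of 0.14 became 0.05 with the trend removed. It was 0.06 without Mboat7-/- replicate 1 and 0.22 without Mboat7-/- replicate 2. Cit, the citron kinase of cytokinesis, had 1153 and 1242 against 2004 and 1742 counts, and the fitted log2 difference of 0.50 (SE 0.09, edgeR adjusted p = 0.161, 0.0139 with the replicate block) became 0.36 with the trend removed. Cenpe, the kinetochore motor, went from 0.36 to 0.16. Notch pathway genes had 14 higher and 9 lower members and a median of 0.05.

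**Figure D4:**
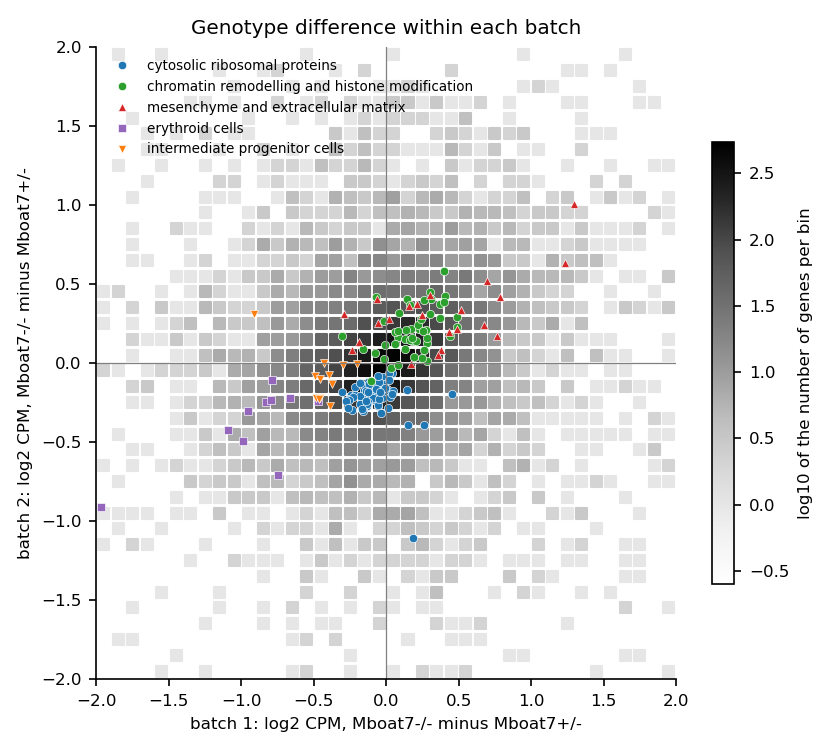
Difference in log2 CPM between the cortex labelled Mboat7-/- and the Mboat7+/- cortex within batch 1 (x axis) and within batch 2 (y axis). Grey squares are bins of genes shaded by the log10 of their number, coloured points are members of 5 lists, and genes beyond 2 in either batch are not drawn. Chromatin genes lie mostly above 0 in both batches (38 of 48) and ribosomal protein genes below 0 in both (64 of 79), IPC genes reach further below 0 in batch 1, with medians of -0.44 and -0.09, and erythroid genes are below 0 in both for 10 of 10.

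Blood transcripts were lower in the cortices labelled Mboat7-/-. Of 14 erythroid genes 10 were tested and 10 were lower, of which 8 did not overlap between genotypes and 8 had an unadjusted p under 0.05. The same shares over all genes tested were 22.4% and 5.44%. The list median was -0.60, or -0.55 with the trend removed. Hbb-y, the embryonic beta-like globin of primitive red cells, had 72051 and 72076 counts in the heterozygous cortices and 47280 and 47411 in those labelled Mboat7-/-. These counts equal 3019 ± 421 CPM (SD, n = 2) against 1800 ± 182, a fitted log2 difference of -0.75 (SE 0.10, edgeR adjusted p = 0.154, 0.0023 with the replicate block). Hba-x, the embryonic alpha-like globin, had 51534 and 43147 against 31547 and 29836 counts, a fitted log2 difference of -0.78 (SE 0.14, edgeR adjusted p = 0.161, 0.0066 with the replicate block). Alas2, the first enzyme of haem synthesis in red cells, was lower by 0.55, and Gata1 and Klf1, the regulators of the lineage, by 0.64 and 0.73. The adult beta-globin entry Beta-s, which shares reads with near-identical copies and is uncertain, had 534 and 725 against 176 and 357 counts. The list was 0.50 lower in the second heterozygous cortex than in the first, a spread close to the difference between genotypes, and its median was -0.35 without Mboat7+/- replicate 1 and -0.85 without Mboat7+/- replicate 2. Summed globin and other erythroid counts were 6927 and 5238 CPM of all counts against 3667 and 3927. Endothelial and pericyte genes, which line and wrap the vessels, were higher for 15 of 21 members with a median of 0.11, and genes of microglia and macrophages for 9 of 16 with a median of 0.09. The endothelial median was 0.21 without Mboat7+/- replicate 1 and 0.06 without Mboat7+/- replicate 2. The microglia median was 0.18 without Mboat7+/- replicate 2 and 0.16 without Mboat7-/- replicate 1.

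Of the genes outside these lists, Erdr1, named for a role in red cell differentiation, had the lowest p. It had 2084 and 1240 counts in the heterozygous cortices and 249 and 228 in those labelled Mboat7-/-. These counts equal 71.4 ± 34.7 CPM (SD, n = 2) against 9.04 ± 0.337. The adjusted p was 0.0528 without and 1.98e-05 with the replicate block (edgeR), and Erdr1 was the only gene called with both the block and the removal of the length and GC trend (0.0498). The log2 fold change was -2.98 (standard error 0.30), against a difference of 1.03 between the 2 heterozygous cortices. The higher of these was the only female cortex, Mboat7+/- replicate 1. Within batch 2, where neither cortex was female, the difference between genotypes was -2.33. The part of sex in this value was not tested. The 2 cortices labelled Mboat7-/- lay within 0.08 of each other. Peg3, an imprinted zinc finger gene transcribed from the paternal allele, had 1116 and 1505 against 3413 and 2281 counts. The fitted log2 difference was 0.98 (SE 0.12, edgeR adjusted p = 0.154, 0.0015 with the replicate block) and 0.80 with the trend removed. Over 30 imprinted genes tested the log2 fold changes ran from -1.02 to 1.03 with a median of 0.13, which was 0.03 without Mboat7-/- replicate 1 and 0.05 without Mboat7+/- replicate 2. Igf2, a growth factor, was higher by 0.26, while Nnat and Ndn were lower by 0.23 and 0.33.

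Other higher genes had long transcripts. Eif2c2, the gene of Argonaute 2, had 1285 and 1311 against 2880 and 1856 counts, Tnks, the poly(ADP-ribose) polymerase tankyrase, 1255 and 1351 against 2484 and 1957, and Synpo, an actin-associated protein, 1323 and 1552 against 2568 and 2099. Zfp462, a zinc finger gene with 10465 nucleotides, was higher by 0.43 and by 0.24 with the trend removed. D830031N03Rik, for which no length was found, had 118 and 180 against 538 and 345 counts, a log2 fold change of 1.43. Clcn5, a chloride transporter of endosomes, and Hmcn1, a large matrix protein, were higher by 1.01 and 1.03, and by 0.82 and 0.84 with the trend removed. Other lower genes for which a length was found had short transcripts. Grina, Jund, Lmo1 and the linker histone gene H1fx were lower by 0.43, 0.29, 0.45 and 0.34, and by 0.31, 0.23, 0.32 and 0.31 with the trend removed, while 1500032L24Rik went from -0.38 to -0.18. No length was found for Tex40 or Pisd-ps3. Tex40 had 10 and 18 counts in the heterozygous cortices and 0 and 1 in the others. Pisd-ps3, a pseudogene that can share reads with its parent gene, had 2625 and 6797 against 2462 and 3429 counts, so its call with the replicate block (adjusted p = 0.0042, edgeR) came with overlapping genotypes.

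**Figure D5:**
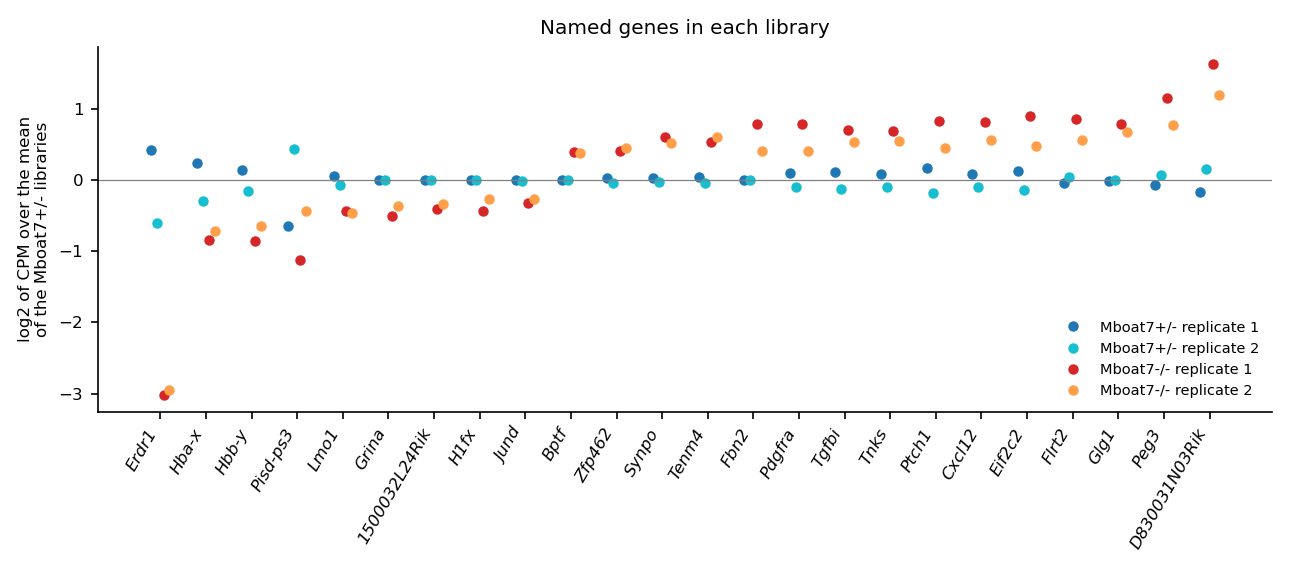
CPM of each library over the mean of the 2 Mboat7+/- libraries, on the log2 scale (y axis), for the first 12 genes called with the replicate block and the first 10 higher and 10 lower genes with a fold change beyond both within-genotype differences, ribosomal protein genes left out (x axis, ordered by fold change). Each point is 1 library. The 2 cortices labelled Mboat7-/- lie apart from both heterozygous cortices for each gene drawn except Pisd-ps3. For the 10 higher and 10 lower genes the selection required this. The 12 called genes were chosen by p from the same libraries, so the separation is no further evidence.

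The E12.5 cortices were also used to ask whether a difference at E11.5 was also a difference between stages. On the 15175 genes tested over both stages, no gene had an FDR under 0.05 for the interaction of stage and genotype (edgeR, smallest 0.134, 874 genes at an unadjusted p under 0.05), and DESeq2 called 19. Peg3 had the smallest p, with a log2 fold change of 0.98 at E11.5 and -0.12 at E12.5. Glg1 was at 0.73 and 0.06, and Ptch1 at 0.66 and -0.23. The list medians at E12.5 were -0.55 for erythroid genes, 0.10 for mesenchyme and extracellular matrix, 0.01 for craniofacial mesenchyme (12 genes with a value there, against 26 at E11.5), 0.04 for IPCs and 0.13 for neurons. Stage, sequencing provider and count table changed together, so their parts in these values cannot be told apart.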

How the data were processed

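Poly(A)-selected RNA of single cortices was sequenced as directional libraries. The authors deposited raw read counts per gene, 1 table per stage. The submitters' processing notes name HISAT2 and Subread, with the builds mm10 and GRCm39, and do not say which build served which table, so no coordinates are given. Counts were compared here with edgeR 4.0.16 (R 4.3.3, TMM scaling, genes with at least 10 counts in 2 or more columns, quasi-likelihood test, Benjamini-Hochberg adjustment). CPM with an SD use normalized library sizes, summed CPM of lists use total counts, and log2 differences between libraries use log2 CPM with a prior count of 2. A floor of 3 counts was 0.106 to 0.137 CPM and covers counting error only.

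Transcript lengths and GC contents were those of the longest protein-coding transcript of GENCODE vM21 (GRCm38), or of the longest transcript where none was protein-coding. They were matched by symbol or RefSeq synonym and found for 99.2% of the genes tested. To remove their trend, splines with 5 degrees of freedom were fitted to each library and entered as offsets. The labels give the replicate number as the batch, which was used to pair the embryos. Across genes the deviations of replicate 1 of both genotypes from their genotype means had a correlation of 0.057. The 4 libraries differed by more than sampling noise (chi-square per degree of freedom 8.73 to 26.0), so each was counted as 1 sample.

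The members and gene lists were chosen with earlier results of these data known, and 6 lists (craniofacial mesenchyme, muscle precursors, cartilage, Hedgehog pathway, crystallins, retina) were added after seeing the values. Named are Mboat7, genes called (12 with the block), the first 10 by p in each direction with a difference beyond both replicate differences (5 more at a log2 fold change of 1 or more), and from each list the first 2 non-overlapping members per direction, the most abundant marker of each cell type and the sex genes. Any further gene was picked with its values in view. Some genes that the rule names are not reported here. Genes of the mitochondrial genome, brain regions outside the telencephalon (median -0.03), cortical hem and choroid plexus (-0.12), glycolysis and hypoxia (0.00), clustered protocadherins (0.15), nuclear long noncoding RNAs (0.00) and immediate early and heat shock genes (-0.05) formed further lists, the first with no gene in the table. Erdr1 is not compared at E12.5, where its identifier pairs with another symbol. Scripts were tested on simulated counts. DESeq2 1.42.0, Python 3.11.15, pandas 2.3.3 and matplotlib 3.10.9 were also used.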

Additional observations from a re-analysis of the deposited data

How the results depend on the processing

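No gene passed an FDR under 0.05 with RLE normalization, with the filter of filterByExpr or with the length and GC trend removed, in each case with edgeR. The count was 317 with no filter on low counts, 2 with at least 10 counts in every column, 169 with DESeq2, 191 with the exact test of edgeR, 367 with the replicate block and 1 with the block and the trend removed. With 1 library left out it ran from 1 to 1203, the highest without Mboat7-/- replicate 2, where the lone sample is assumed to vary like the other group. The number of genes at an unadjusted p under 0.05 was 2059, between 1555 and 2534 under the other tools, filters and scalings and with the block, 1129 with the trend removed, 1516 with the block as well, and from 965 to 3124 with a library left out. For the interaction of stage and genotype the count was 0 in edgeR, also with the replicate block, 19 with DESeq2, and from 0 to 130 with a library left out, the highest without E11.5 Mboat7-/- replicate 2. The causes were not tested.

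Among the named genes, some that reversed had small values. Others, Tcf7l2 and Nhlh2 among them, changed direction with a single library left out or rest on the sex of an embryo. With the trend removed Notch1 was at -0.017, Cdc20 at 0.014 and Meg3 at -0.051, and with the replicate block as well at -0.017, 0.014 and -0.051. With a library left out, Nhlh2 ran from -0.44 to 0.039 and Tcf7l2 from -0.61 to 0.42, both highest without Mboat7-/- replicate 1. Wnt8b ran from -0.024 (without Mboat7+/- replicate 2) to 0.082, and was at -0.016 without Mboat7-/- replicate 1. Y-linked Eif2s3y ran from -0.22, without the female Mboat7+/- replicate 1, to 13.1 without Mboat7+/- replicate 2, and Tcf7l2 was at 0.17 without Mboat7+/- replicate 1. The replicate block brought 55 named genes under an FDR of 0.05 and reversed none. With 2 embryos per genotype, the spread behind each p rests on 2 residual degrees of freedom per gene, or 1 with the replicate block, and on what is shared across genes, and low genes such as Pax9 or Tex40 rest on few counts.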
